A study of Drosophila melanogaster with 9 samples.

Results

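The sodium pump, cation-chloride cotransporter and ammonium transporter genes of the larval dorsal organ were described here. They comprise 8 genes, *Atpalpha*, *nrv1*, *nrv2*, *nrv3*, *kcc*, *Ncc69*, *Amt* and *Rh50*, chosen by name among the 17421 genes in the files. All 8 were found, and 7 of them had enough counts to be tested between the genotypes. RNA-Seq was performed on 4 wild-type and 5 *Orco* mutant samples of 20 dorsal organs each, taken from larvae of the third instar, to ask whether loss of the odorant co-receptor Orco is accompanied by changes in RNA. Both genotypes were *w1118* and carried *Orco-Gal4* and *UAS-mCD8-GFP* on both homologous chromosomes, and the *Orco* mutant larvae were in addition homozygous for the null allele *orco1*. The driver labels only the olfactory receptor neurons (ORNs), but the GFP served to find the organ and the whole organ was lysed, with its support cells, glia and any tissue that stayed attached. Each sample was isolated independently per the labels, and the ages of the larvae beyond the instar were not given in the sources used here.

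The Na+/K+-ATPase exchanges internal sodium for external potassium at the cost of ATP and maintains the ion gradients that neuronal signalling uses. It is built from a catalytic alpha subunit, encoded in *Drosophila* mainly by *Atpalpha*, and a beta subunit, encoded by the Nervana genes *nrv1*, *nrv2* and *nrv3*, which the alpha subunit needs to reach the membrane. The cation-chloride cotransporters set internal chloride: the K+-Cl- cotransporter Kcc moves chloride out of cells and the Na+-K+-2Cl- cotransporter Ncc69 moves it in. Amt and Rh50 belong to separate families of ammonium transport proteins, and Amt is known from ammonia-sensing olfactory sensilla of adult flies.

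Total estimated counts ranged from 4432839 to 7005182 in the wild-type libraries and from 4090474 to 9157645 in the *Orco* mutant libraries, of which 33.3% to 53.8% belonged to genes named as rRNA. *Orco* itself was measured at 229 to 385 CPM (counts per 1000000 counts of the genes tested, TMM scaled) in the wild-type libraries and at 0 to 1.31 CPM in the *Orco* mutant libraries. Its log2 fold change was -9.25 (SE 0.81, adjusted p = 3.75e-04, edgeR), so the targeted gene followed the labels in all 9 libraries. All 10 neuronal marker genes examined, among them *elav*, *nSyb* and *brp*, had counts in 8 of the 9 libraries, and 9 of them in the remaining one. The glial marker *repo* and the sensillum marker *nompA* were also detected in these organs, whereas the sensillum marker *lush* had 1 count in all. Of the 10 glial markers, 7 had enough counts to be tested. The glial markers *alrm*, *gcm* and *Eaat1* did not, with 15, 18 and 80 counts in all. The 5 ORN markers, *Orco* and 4 odorant receptor genes, summed to 275 to 463 CPM in the wild-type and 0.122 to 13.1 CPM in the *Orco* mutant libraries, and *Orco* made up most of the wild-type sum. The libraries also differed in makeup within each genotype. The summed level of the 10 neuronal markers was 293 to 848 CPM in the wild-type and 320 to 1140 CPM in the *Orco* mutant libraries. That of 10 muscle markers was 251 to 2121 CPM and 89.1 to 1482 CPM, and both sums were highest in wild-type 2, *Orco* mutant 3 and *Orco* mutant 5. *Orco* mutant 5 also had the largest mitochondrial share of its counts, 14.6% against 0.543% to 6.77% in the other libraries, and *Orco* mutant 3 had the fewest genes with a count, 6810 against 8482 to 10978 elsewhere. In bulk organs, fewer cells of a type and less RNA per cell cannot be told apart.

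None of the 7 tested transporter genes passed the test of *Orco* mutant against wild-type organs (0 of 7 with an adjusted p under 0.05, edgeR's quasi-likelihood test). The background was low, since 3 of 8160 genes, or 0.0368%, were called in the same test. An unadjusted p under 0.05 was found for 0 of the 7, against 4.96% of all genes tested, and DESeq2 also called 0 of the 7, against 1.17% of all genes. CPM values of the genotypes overlapped for every one of the 8 genes, whereas 3.87% of the genes tested had genotypes that did not overlap. The log2 fold change was negative for 6 of the 7 genes, with a median of -0.18, against 50.1% of all genes tested, whose median was -0.0014. The 95% interval of the fold change lay within 2-fold in either direction for 2 of the 7 genes, *Atpalpha* and *nrv1*. The intervals of the other 5 reached below a 2-fold decrease but not above a 2-fold increase. A miss in this test does not show that a gene was unchanged. For genes drawn from all 8160 tested, 0% of 2-fold and 4% of 4-fold changes simulated for this comparison were recovered. Recovery for genes with the counts and spread of these 7 was not simulated. Replicates of a genotype lay closer together than for the median gene: the median SD of log2 CPM within genotypes was 0.61 for the 7 genes and 1.23 for all genes tested, a set that also holds far weaker genes.

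**Figure D1:**
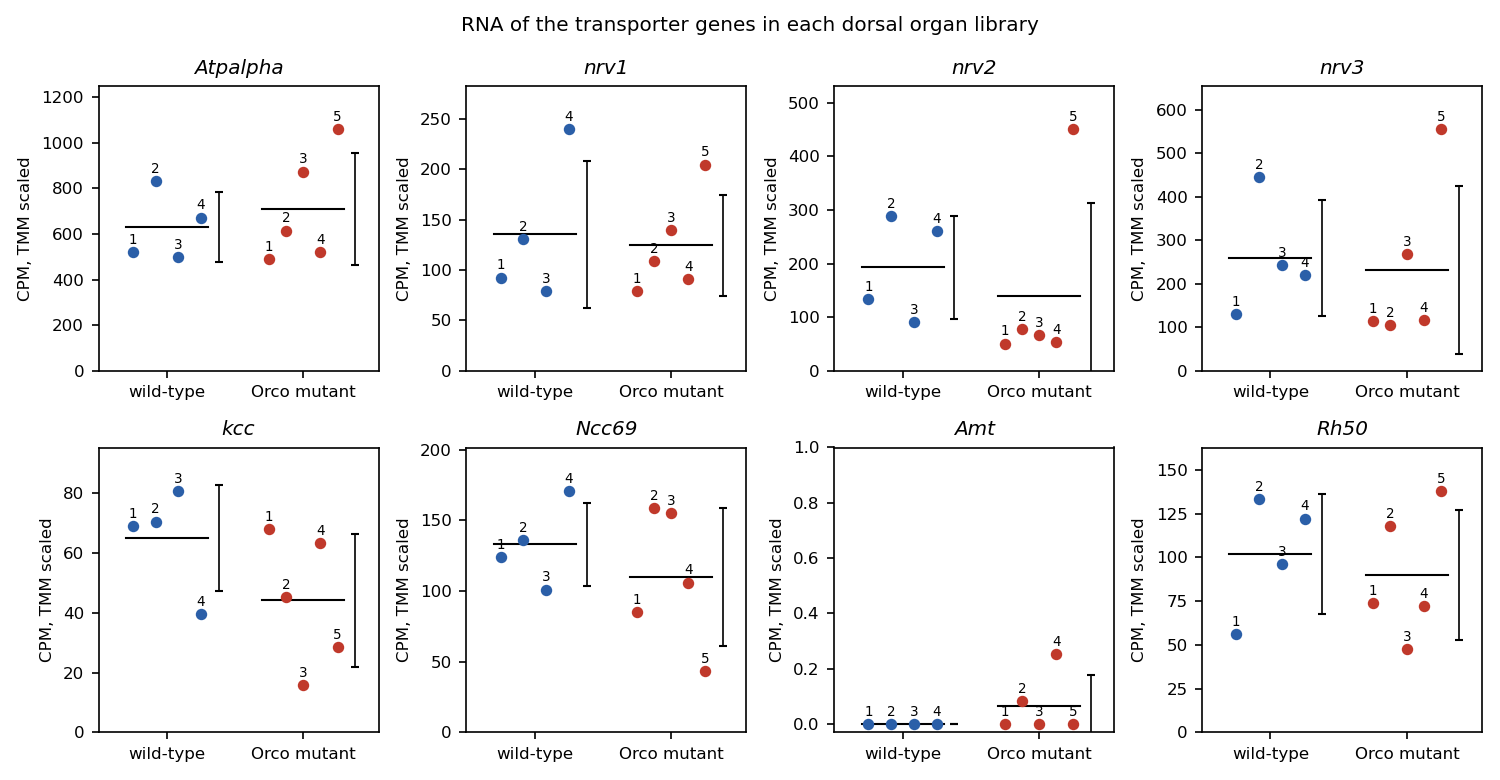
Level of each of the 8 genes in CPM (linear axis, TMM scaled) in the 4 wild-type (blue) and 5 *Orco* mutant (red) libraries. Each point is 1 library with its replicate number, horizontal lines are means and vertical bars are 1 SD around the mean. The genotypes overlap for every gene, *Orco* mutant 5 lies at 450 CPM for *nrv2* against 51.1 to 77.5 CPM in the other 4 *Orco* mutant libraries, and *Amt* is at or close to 0 throughout.

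*Atpalpha*, the catalytic subunit of the sodium pump, had the highest CPM of the 8 genes in every library. It is annotated at chr3R:20948714-20976239 on the plus strand of the Release 6 genome. Its level was 521, 831, 498 and 672 CPM in wild-type 1 to 4 and 490, 615, 874, 521 and 1058 CPM in *Orco* mutant 1 to 5. The highest libraries of both genotypes, wild-type 2, *Orco* mutant 3 and *Orco* mutant 5, were those with the highest neuronal and muscle marker sums, and the part of tissue makeup in the level of *Atpalpha* was not tested. The means were 631 ± 154 CPM (SD, n = 4) and 712 ± 246 CPM (SD, n = 5). The log2 fold change was 0.17 (SE 0.30, 95% interval -0.49 to 0.83, adjusted p = 0.997, edgeR), a difference smaller than the spread between replicates. It was -0.014 without *Orco* mutant 5 and -0.21 without *Orco* mutant 3 and 5, so its direction rested on those libraries.

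The 3 beta subunit genes lie on chromosome 2L. *nrv1* (chr2L:6778555-6786861) and *nrv2* (chr2L:6789770-6798862) are neighbours on the minus strand, with 2909 bases between them, and *nrv3* (chr2L:21380000-21393319) lies far from them on the plus strand. The gene counts of all 3 were whole numbers in 9 of 9 libraries, within 0.01 counts, so no reads were divided between them or with another gene.

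*nrv2*, which in the fly encodes a beta subunit found in glia and epithelia and is also needed for septate junctions, showed the largest spread. Its level was 133, 289, 91.4 and 260 CPM in wild-type 1 to 4 and 51.1, 77.5, 67.2, 53.2 and 450 CPM in *Orco* mutant 1 to 5. *Orco* mutant 1 to 4 all lay below the lowest wild-type library, and *Orco* mutant 5 lay above the highest. The means were 193 ± 95.9 CPM (SD, n = 4) and 140 ± 174 CPM (SD, n = 5), and the log2 fold change was -0.47 (SE 0.66, 95% interval -1.90 to 0.96, adjusted p = 0.997, edgeR). A two-sided exact permutation test over the 126 groupings of the libraries gave p = 0.238, where the smallest possible p was 0.00794.

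*Orco* mutant 5 decided the value of *nrv2*. Without it the log2 fold change was -1.64 (SE 0.40, 95% interval -2.51 to -0.76), the unadjusted p was 0.00168 and the adjusted p was 0.296 with edgeR, and the genotypes no longer overlapped. In that comparison 3 of 8109 genes, 0.037%, were called, 6.29% had an unadjusted p under 0.05, and 4.54% had *Orco* mutant libraries that all lay below the wild-type libraries. *nrv2* was therefore not called with or without this library. With all 9 libraries, limma-voom gave -1.15 (unadjusted p = 0.0443, adjusted p = 0.582), and -1.23 with library quality weights (unadjusted p = 0.00851, adjusted p = 0.180). *Orco* mutant 5 also had the highest summed neuronal markers (1140 CPM), glial markers (2117 CPM over 10 genes, against 1110 to 1857 CPM elsewhere) and mitochondrial share. Its 8 epidermis and cuticle markers summed to 8782 CPM, against 689 to 3779 CPM elsewhere, and its fat body markers (383 CPM, against 52.3 to 231 CPM) and tracheal markers (652 CPM, against 90.8 to 596 CPM) were also the highest of the 9 libraries. *Gs2*, glutamine synthetase, made up most of the glial sum, and whether any of these moved *nrv2* was not tested.

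*nrv3*, a beta subunit gene known from the fly nervous system, was measured at 130, 445, 243 and 220 CPM in wild-type 1 to 4 and at 115, 106, 268, 116 and 555 CPM in *Orco* mutant 1 to 5. *Orco* mutant 1, 2 and 4 fell below every wild-type library and *Orco* mutant 5 was the highest of all 9. The means were 260 ± 133 CPM (SD, n = 4) and 232 ± 193 CPM (SD, n = 5), and the log2 fold change of -0.16 (SE 0.53, 95% interval -1.31 to 0.98, adjusted p = 0.997, edgeR) was well inside the replicate spread. Its sign turned when wild-type 2 (0.23) or *Orco* mutant 1, 2 or 4 (0.0044 to 0.022) was left out, and the value moved to -0.78 without *Orco* mutant 5 and to -1.20 without *Orco* mutant 3 and 5 (adjusted p = 0.370, edgeR). With all libraries, limma-voom gave -0.56 without and -0.70 with library quality weights (adjusted p = 0.785 and 0.403). As with *Atpalpha*, the libraries with the highest *nrv3* in each genotype were those with the highest neuronal marker sums, wild-type 2 (848 CPM of markers), *Orco* mutant 5 (1140 CPM) and *Orco* mutant 3 (647 CPM). All other libraries had marker sums of 293 to 418 CPM.

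**Figure D2:**
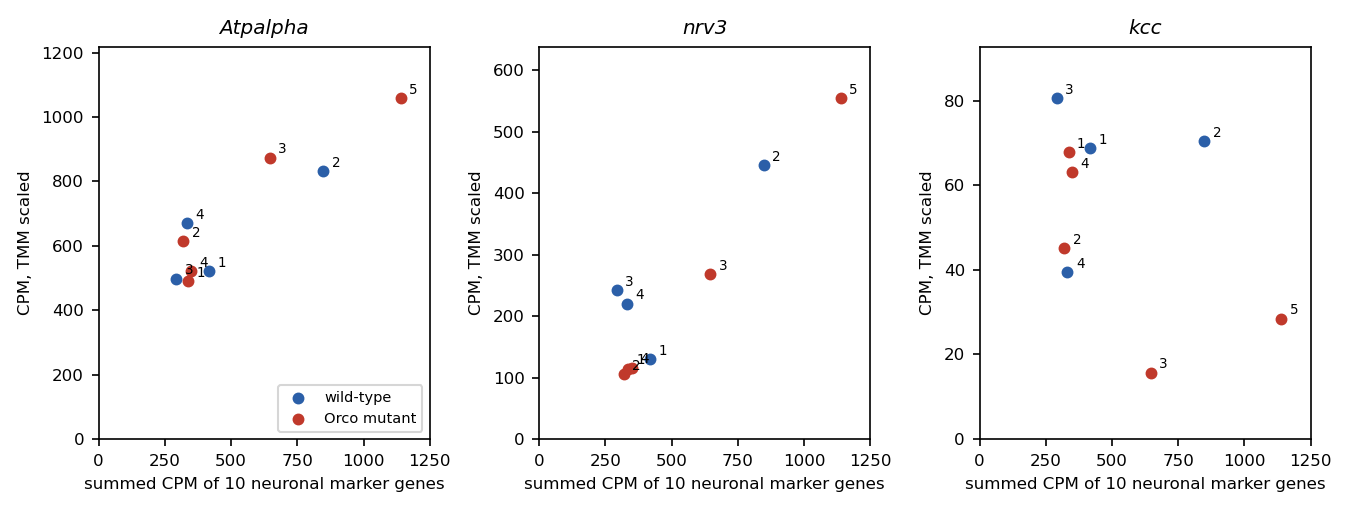
Level of *Atpalpha*, *nrv3* and *kcc* (CPM, linear axes) against the summed CPM of the 10 neuronal marker genes in the same library, with wild-type libraries in blue, *Orco* mutant libraries in red and replicate numbers beside the points. *Orco* mutant 5 has the highest marker sum (1140 CPM) and the highest *Atpalpha* (1058 CPM) and *nrv3* (555 CPM), while its *kcc* (28.5 CPM) is among the lowest.

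*nrv1*, the most evenly distributed of the beta subunit genes between the genotypes, was measured at 92.4, 131, 79.1 and 239 CPM in wild-type 1 to 4 and at 78.7, 109, 139, 90.9 and 204 CPM in *Orco* mutant 1 to 5. Each genotype had 1 library clearly above its others, wild-type 4 and *Orco* mutant 5, and the others of both genotypes shared the same range. The means were 135 ± 72.7 CPM (SD, n = 4) and 124 ± 50.2 CPM (SD, n = 5), with a log2 fold change of -0.12 (SE 0.40, 95% interval -0.999 to 0.753, adjusted p = 0.997, edgeR). The sign turned without wild-type 4 (0.30) and without *Orco* mutant 1 (0.0053).

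Levels of different genes were compared per kilobase, with counts divided by the mean length of the annotated transcripts. *Atpalpha* came first, with a wild-type mean of 139.5 ± 34.1 CPM per kb (SD, n = 4) and an *Orco* mutant mean of 157 ± 54.3 CPM per kb (SD, n = 5), and exceeded each beta subunit gene that followed it: its ratio to *nrv3* was 1.27 to 3.97 over the 9 libraries. By this measure the beta subunit genes could not be ordered, since *nrv3* exceeded *nrv2* in 5 of 9 libraries and *nrv2* exceeded *nrv1* in 4 of 9. In the wild-type organs their means were 84.1, 85.8 and 65.7 CPM per kb for *nrv3*, *nrv2* and *nrv1*. *nrv1* exceeded *Rh50* in 7 of 9 libraries and *Rh50* exceeded *Ncc69* in 7 of 9. *Ncc69* exceeded *kcc* in 9 of 9. The order of the beta subunit genes depended on the length used. With each transcript divided by its own length, *nrv3* had the largest mean share of beta subunit RNA in both genotypes. It held 47.9% in wild-type and 49.97% in *Orco* mutant organs, against 30.0% and 21.8% for *nrv2* and 22.1% and 28.3% for *nrv1*.

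All 3 beta subunit genes contributed to the pool of beta subunit RNA in each library. In wild-type organs the share per kilobase was 28.1 ± 8.37% for *nrv1*, 35.6 ± 6.68% for *nrv2* and 36.3 ± 12.2% for *nrv3* (SD, n = 4). In *Orco* mutant organs it was 36.3 ± 9.11%, 26.3 ± 9.61% and 37.3 ± 6.75% (SD, n = 5). The *nrv2* share was 40.5, 38.1, 25.7 and 38.1% in wild-type 1 to 4 and 23.1, 28.3, 16.2, 22.4 and 41.7% in *Orco* mutant 1 to 5. The genotypes overlapped, with wild-type 3 below *Orco* mutant 2 and *Orco* mutant 5 above every wild-type library. The share of *nrv3* depended on the length used in both genotypes. It was 47.9% in wild-type and 49.97% in *Orco* mutant organs when each transcript was divided by its own length, and 44.3% and 46.0% with no division by length. With the longest transcript of each gene as its length it fell to 30.3% and 30.7%, and in wild-type organs *nrv1* (32.5%) and *nrv2* (37.2%) then lay above it.

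The ratio of *Atpalpha* to summed beta subunit RNA, per kilobase, was 0.789, 0.548, 0.700 and 0.490 in wild-type 1 to 4. In *Orco* mutant 1 to 5 it was 1.11, 1.12, 1.05, 1.09 and 0.489. *Orco* mutant 1 to 4 thus lay close together above every wild-type library, and *Orco* mutant 5 lay at the lowest wild-type value. The ratio of *nrv1* to *nrv2* per kilobase followed the same arrangement, at 0.495 to 1.01 in wild-type, 1.54 to 2.27 in *Orco* mutant 1 to 4 and 0.497 in *Orco* mutant 5. These ratios are descriptions of the libraries with no test, and *nrv2* enters each of them. They were computed with the mean transcript length only. The share of *nrv3*, which enters the first ratio, depended on the length used, so the absolute values of that ratio depend on it too.

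**Figure D3:**
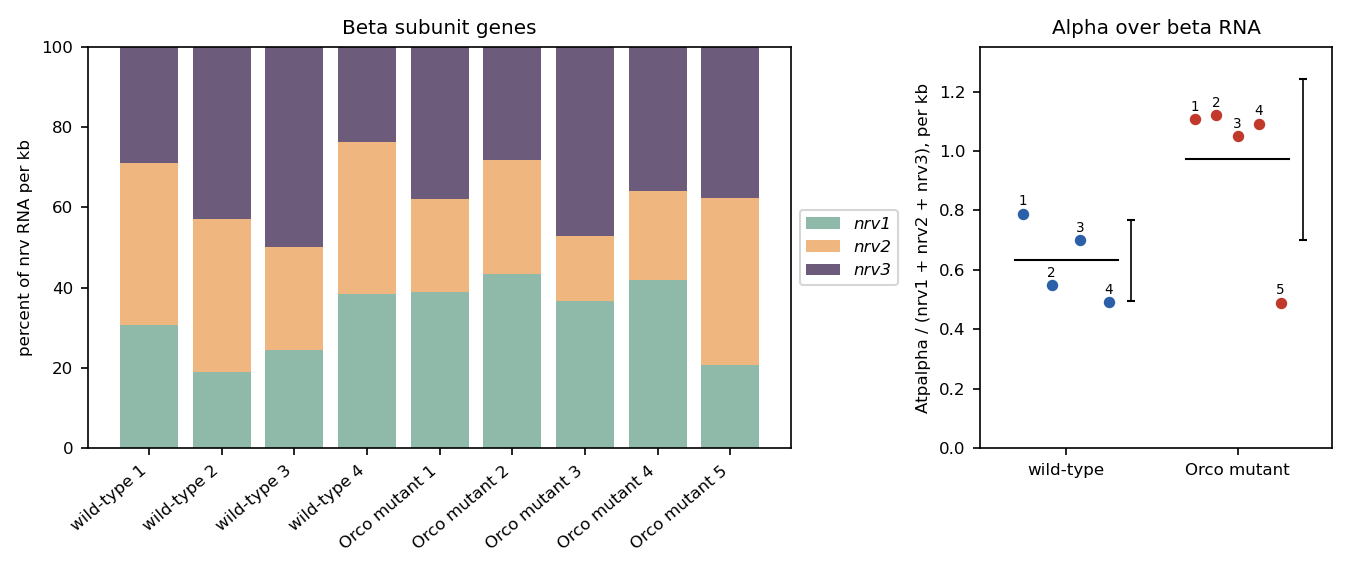
Left, share of *nrv1*, *nrv2* and *nrv3* in the beta subunit RNA of each library, in percent after division by the mean transcript length. Right, ratio of *Atpalpha* to the summed *nrv* genes per kilobase, with points as libraries, replicate numbers, means (lines) and 1 SD (bars); *Orco* mutant 1 to 4 lie at 1.05 to 1.12 and *Orco* mutant 5 at 0.489, against 0.490 to 0.789 in wild-type.

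*Ncc69*, the Na+-K+-2Cl- cotransporter, which in fly nerves acts in glia to keep extracellular fluid in balance, was measured at 124, 136, 101 and 171 CPM in wild-type 1 to 4 and at 85.2, 159, 155, 106 and 43.1 CPM in *Orco* mutant 1 to 5. *Orco* mutant 5 was the lowest library and *Orco* mutant 1 also lay below the wild-type range, whereas the other 3 lay within it. The means were 133 ± 29.1 CPM (SD, n = 4) and 110 ± 48.7 CPM (SD, n = 5), with a log2 fold change of -0.28 (SE 0.39, 95% interval -1.11 to 0.56, adjusted p = 0.997, edgeR), and without *Orco* mutant 5 the log2 fold change was -0.075. *Ncc69* lies at chr3L:12368646-12391444 on the minus strand and overlaps a long non-coding RNA gene on the opposite strand, *CR45824*, which had 0 counts in all 9 libraries.

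*kcc*, the K+-Cl- cotransporter, had the most negative log2 fold change of the 7 genes in the edgeR fit with all libraries. Its level was 68.7, 70.4, 80.6 and 39.5 CPM in wild-type 1 to 4 and 67.8, 45.2, 15.7, 63.1 and 28.5 CPM in *Orco* mutant 1 to 5. *Orco* mutant 3 and 5 lay below all wild-type libraries and the other 3 lay within the wild-type range. The means were 64.8 ± 17.7 CPM (SD, n = 4) and 44.0 ± 22.2 CPM (SD, n = 5), and the log2 fold change was -0.55 (SE 0.48, 95% interval -1.59 to 0.48, adjusted p = 0.997, edgeR; exact permutation p = 0.190). It was -0.34 without *Orco* mutant 3, -0.14 without *Orco* mutant 3 and 5 (adjusted p = 0.975, edgeR), and -0.22 in limma-voom with library quality weights. *Orco* mutant 3 and 5 and wild-type 2, which had 70.4 CPM of *kcc*, were the libraries with high neuronal and muscle marker sums described above, and the part of tissue makeup in the level of *kcc* was not tested. *kcc* lies at chr2R:23907654-23925066 on the plus strand. An antisense RNA gene, *CR44806*, overlaps it and had counts in a single library (23.4), where the *kcc* count of 556 was not whole, so that some reads had been divided between these genes.

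The ratio of *Ncc69* to *kcc* per kilobase was above 1 in every library, at 1.56, 1.68, 1.09 and 3.75 in wild-type 1 to 4. It was 1.09, 3.05, 8.57, 1.46 and 1.31 in *Orco* mutant 1 to 5. The inward chloride transporter thus had more RNA per length than the outward one in all 9 libraries, and the ratio varied more within each genotype than between the genotype means of 2.02 and 3.10. *Orco* mutant 3, with the highest ratio, had 57 counts of *kcc*.

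The ammonium transporter genes were at opposite ends of detection. *Rh50*, a Rhesus-type ammonium channel gene at chr3L:4910368-4920198 on the plus strand, was measured at 56.0, 134, 96.3 and 122 CPM in wild-type 1 to 4 and at 73.8, 118, 47.4, 72.3 and 138 CPM in *Orco* mutant 1 to 5. The genotypes shared nearly the whole range, with the lowest and the highest library both *Orco* mutant. The means were 102 ± 34.4 CPM (SD, n = 4) and 89.9 ± 37.0 CPM (SD, n = 5), and the log2 fold change was -0.18 (SE 0.39, 95% interval -1.04 to 0.67, adjusted p = 0.997, edgeR).

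*Amt* (chr3R:15247163-15249137, minus strand) had 0 counts in each of the 4 wild-type libraries. Over their 22150764 counts, a count of 0 allows a level of up to 0.135 CPM, counting error only. In the *Orco* mutant libraries it had 1 count in *Orco* mutant 2, 2 counts in *Orco* mutant 4 and 0 in the others, 3 of 34627504 counts. It was not tested, and no fold is given because both genotypes were at or under the limit of 3 counts. The antennal ammonium transporter of adult flies was therefore not detectable in these larval organs at this depth, while *Rh50* had 172 to 1438 counts per library.

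**Figure D4:**
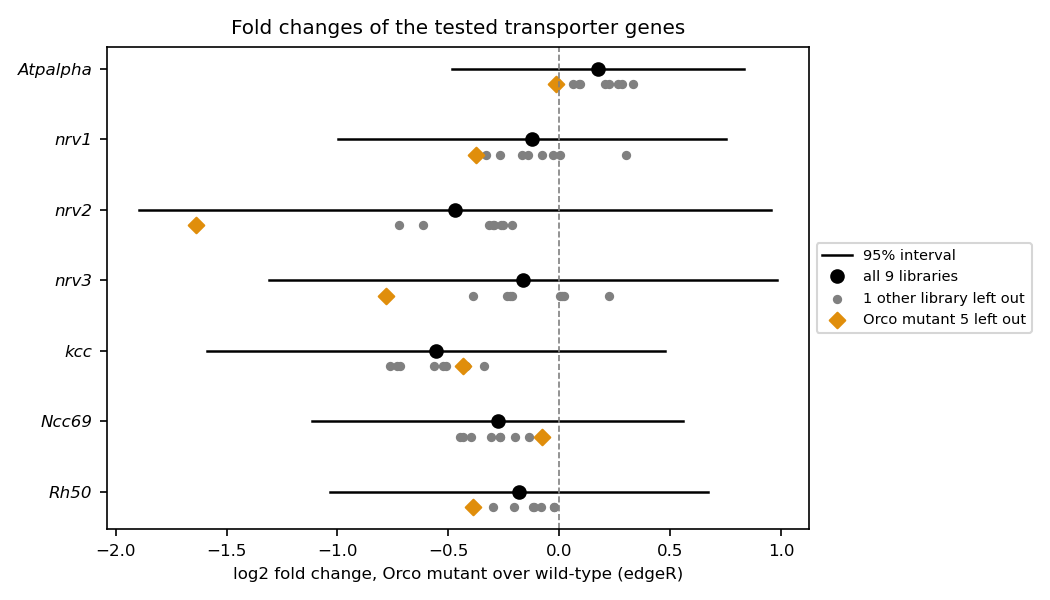
Log2 fold change of the 7 tested genes, *Orco* mutant over wild-type, from edgeR with all 9 libraries (black points, with 95% intervals as lines) and with 1 library left out (grey points, and orange diamonds for *Orco* mutant 5). All intervals include 0, and leaving out *Orco* mutant 5 moves *nrv2* from -0.47 to -1.64 and *nrv3* from -0.16 to -0.78.

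The 8 genes have 40 annotated transcripts in the files, of which 31 were tested. None passed (0 of 31 with an adjusted p under 0.05 and 0 with an unadjusted p under 0.05, edgeR), against 0.0152% and 3.05% of the 13161 transcripts tested. Transcripts of a gene overlap, so their shares are estimates from short single-end reads and are given as descriptions.

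For *nrv2*, transcripts C, F and G start upstream of transcripts A, D and E and encode 323 rather than 322 codons. C, F and G made up 89.1, 100, 92.6 and 56.2% of the *nrv2* counts in wild-type 1 to 4 and 0, 91.4, 58.6, 59.8 and 99.3% in *Orco* mutant 1 to 5. Transcript F accounted for most of this, with a wild-type mean of 79.0 ± 19.1% (SD, n = 4) and an *Orco* mutant mean of 55.8 ± 34.3% (SD, n = 5). *Orco* mutant 1 was the only library in which the downstream start carried all *nrv2* counts, and the genotypes overlapped.

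For *Ncc69*, transcripts A and G, which encode 1171 codons, made up 31.8, 96.4, 62.8 and 54.2% of the counts in wild-type 1 to 4. In *Orco* mutant 2 and 4 they made up 43.1 and 18.2%, in *Orco* mutant 3 they made up 0.127%, and in *Orco* mutant 1 and 5 they had 0 counts after rounding. Transcripts C, D and F, which encode 1191 codons, had a wild-type mean of 33.9 ± 24.4% (SD, n = 4) and an *Orco* mutant mean of 77.1 ± 22.9% (SD, n = 5). Both shares overlapped between the genotypes, with wild-type 1 below *Orco* mutant 2 for A and G and above *Orco* mutant 2 and 3 for C, D and F, and no *Ncc69* transcript passed the test.

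For *Atpalpha*, 9 of 9 libraries had most of their counts in the transcripts B, C, E, J and K, which share 1 coding sequence of 1002 codons (79.3 ± 13.2% in wild-type, n = 4, and 75.1 ± 11.2% in *Orco* mutant organs, n = 5, SD). The place where the transcript ended varied more. Transcripts A, B and K, with the shortest 3′ end, made up 42.1, 7.89, 55.2 and 68.1% in wild-type 1 to 4 and 70.6, 81.7, 41.6, 82.9 and 1.01% in *Orco* mutant 1 to 5. Wild-type 2 and *Orco* mutant 5, the lowest in each genotype, had the largest share of transcript J, with the most distal end (45.4% and 66.5%), and were also the libraries with the highest neuronal marker sums. The part of tissue makeup or RNA quality in this was not tested.

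**Figure D5:**
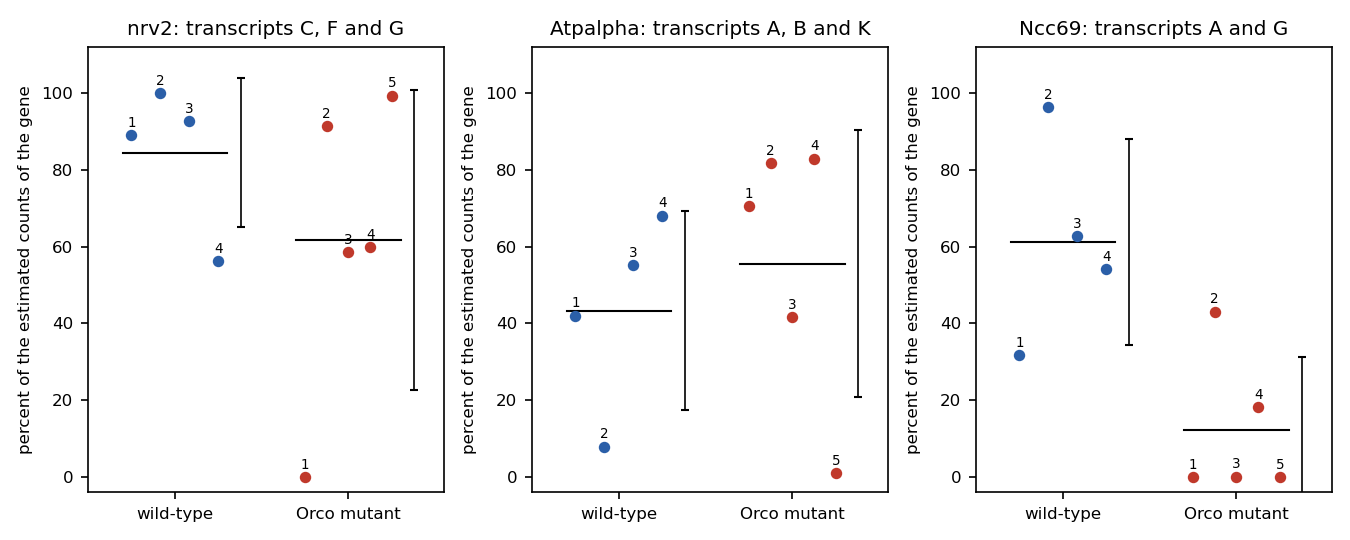
Share of the estimated counts of *nrv2*, *Atpalpha* and *Ncc69* in the named transcripts, in percent, for each wild-type (blue) and *Orco* mutant (red) library, with replicate numbers, means (lines) and 1 SD (bars). For *Ncc69* transcripts A and G the libraries lie at 31.8 to 96.4% in wild-type and at 0 to 43.1% in *Orco* mutant, and the genotypes overlap in all 3 panels.

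The main form of *nrv3* and of *Rh50* was the same in all 9 libraries, whereas that of *nrv1* and *kcc* was not. *nrv3* transcripts A and C, with the proximal of the 3′ ends, had a wild-type mean of 77.4 ± 9.75% (SD, n = 4) and an *Orco* mutant mean of 80.7 ± 16.7% (SD, n = 5). *Rh50* transcript A, of 449 codons, made up 65.2 ± 11.2% (SD, n = 4) and 71.6 ± 10.6% (SD, n = 5), in wild-type and *Orco* mutant organs. *kcc* was spread over several transcripts, with transcript F at 43.7 ± 28.9% (SD, n = 4) and 32.2 ± 24.1% (SD, n = 5). The *nrv1* transcripts, A and B, differ in their 3′ ends and encode the same 309 codons. Transcript A, with the more distal end, made up 95.6, 65.2, 47.3 and 49.9% in wild-type 1 to 4 and 37.2, 26.6, 100, 14.7 and 100% in *Orco* mutant 1 to 5. It was above the wild-type range in *Orco* mutant 3 and 5 and below it in *Orco* mutant 1, 2 and 4.

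Across the 9 libraries the level of *Atpalpha* rose with those of its beta subunit genes: Pearson's r of log2(CPM + 1) was 0.77 with *nrv1*, 0.67 with *nrv2* and 0.82 with *nrv3*. It was -0.72 with *kcc* and -0.24 with *Ncc69*, and *nrv2* and *nrv3* had an r of 0.78. By rank, Spearman's correlation of *Atpalpha* was -0.63 with *kcc* and 0.27 with *Ncc69*, so the direction for *Ncc69* depended on the measure. These are descriptions over 9 libraries, and the values of all genes in a library share its tissue makeup and depth, which differed between the libraries. Among the 5666 tested genes with a mean of at least 10 CPM, those most like *Atpalpha* were *CG3770* (r = 0.94) and *Nckx30C* (0.94), which encodes a sodium-calcium exchanger. Those most like *nrv2* were *Vha26* (0.95), a vacuolar proton pump subunit gene, and *Ggamma1* (0.94), a G protein subunit gene. For *nrv3* they were *CG1265* (0.98) and *Ald* (0.97), which encodes aldolase, and for *nrv1* they were *Thor* (0.90), the fly 4E-BP, and *P5CDh1* (0.86). The genes most like *kcc* encode mitochondrial ribosomal proteins, *mRpL35* (0.96) and *mRpL22* (0.95). Those most like *Ncc69* were *CG17323* (0.95) and *ASPP* (0.95), and those most like *Rh50* were *CG4829* (0.90) and *CG32473* (0.88). All were picked as the highest of 5666 correlations over 9 libraries, so high values can arise from the picking alone. Whether any exceeds that was not tested.

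Other genes of the same transport systems were read from the same fit. In each list that had genes tested, 0 were called, where 0.0368% of all genes tested were. Other Na+/K+-ATPase subunit genes were near absent, and 0 of them had enough counts to be tested. *JYalpha*, an *Atpalpha* paralog known from the male germ line, had 7 counts in all 9 libraries, *CG33310* had 6, and *CG5250* and *CG11703* had 0. *Atpalpha* and the Nervana genes thus held nearly all sodium pump RNA among the genes matched.

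All 6 further cation-chloride cotransporter and kinase pathway genes were tested, with a median log2 fold change of -0.17. Their most abundant members were *CG10413* (102 CPM in wild-type and 108 CPM in *Orco* mutant organs), *Mo25* (55.1 and 58.4 CPM), a scaffold of the kinases that phosphorylate the cotransporters, and *CG12773* (57.6 and 35.8 CPM). *fray* and *Wnk*, the kinases that regulate these cotransporters in the fly, had log2 fold changes of -0.42 (SE 0.62) and -0.44 (SE 1.25). For *CG31547*, an Na+-K+-2Cl- cotransporter gene like *Ncc69*, it was 0.66 (SE 0.63).

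Of 6 genes that handle ammonia, 5 were tested. *Gs2*, glutamine synthetase, which binds ammonium into glutamine, was measured at 1014 CPM in wild-type and 1423 CPM in *Orco* mutant organs. *Gdh*, glutamate dehydrogenase, was measured at 321 and 503 CPM (log2 fold change 0.65, SE 0.30), with an unadjusted p of 0.0496 and an adjusted p of 0.992 in edgeR. *Got2*, an aspartate aminotransferase, was measured at 135 and 94.6 CPM. *Ir92a*, a receptor gene linked to ammonia sensing in adult flies, had 42 counts in all and was not tested.

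Among 16 further ion exchangers, pumps and channels, the most abundant were *PMCA* (201 and 138 CPM), *SERCA* (128 and 145 CPM) and *SPoCk* (83.0 and 104 CPM). They are calcium pumps of the plasma membrane, the endoplasmic reticulum and the secretory pathway. An unadjusted p under 0.05, found for 4.96% of all genes, was found for 2 of the 16, *Ndae1* (log2 fold change 1.14, SE 0.43), a sodium-driven anion exchanger gene, and *zyd* (-2.63, SE 1.11), a sodium-calcium exchanger gene of fly glia. Neither was called (adjusted p = 0.978 and 0.980, edgeR), and both were named after their values were seen. All 13 septate junction genes were tested, since the pump also takes part in these junctions. Their median log2 fold change was 0.21, and the most abundant were *Nrg* (183 and 283 CPM), *cora* (162 and 162 CPM) and *Lac* (60.9 and 95.1 CPM).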

How the data were processed

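The files analysed were those of 4 wild-type and 5 *Orco* mutant libraries, without the *Orco* mutant sample that was set aside upstream because of its few reads. The authors amplified cDNA with Smart-seq2, made libraries with Nextera XT, sequenced single-end reads, removed adapters with cutadapt 1.9.1, and deposited estimated counts per transcript from kallisto 0.43.0 and per gene from tximport, with no normalization. kallisto was run with its default settings, which do not use strand, so reads of overlapping genes on opposite strands cannot be told apart. Ribosomal and mitochondrial genes stayed in the libraries, which lowers the CPM of other genes.

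Here the estimated counts were rounded, genes were kept by filterByExpr (minimum count 10, minimum total 15), scaled with TMM, and compared with edgeR 4.0.16 (quasi-likelihood test, Benjamini-Hochberg adjusted p under 0.05 over 8160 genes or 13161 transcripts). The common biological coefficient of variation was 0.996. Tested on simulated counts for this comparison, the fit recovered 0%, 4% and 33% of 200 genes changed by 2-, 4- and 8-fold. SEs and intervals come from the coefficient without prior count. CPM values are scaled by TMM over the genes tested. Exact permutation tests used the difference in mean log2(CPM + 1) over 126 groupings. Neither the intervals nor the p-values cover more than the spread between samples. Coordinates and transcript lengths were read from Ensembl's gene annotation for Release 6 (17224 of 17421 gene identifiers matched).

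The members, gene lists and marker lists were chosen with earlier results of these data known. The rule for named genes took the 8 members, *Orco*, the 3 most abundant members of each other list where none was called, and the 2 genes most correlated with each member. *fray*, *Wnk*, *CG31547*, *Ir92a*, *Ndae1*, *zyd* and the marker genes named were singled out besides. *CG3701*, on the list of sodium pump subunit genes, was not matched. Alternatives were RLE and upper quartile scaling, totals without rRNA and mitochondrial genes, other filters, DESeq2 1.42.0, limma-voom (limma 3.58.1) with and without library quality weights, a block for the replicate number, leaving out each library, and, chosen after seeing the data, leaving out *Orco* mutant 3 and 5 and dividing each transcript by its own length.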

Additional observations from a re-analysis of the deposited data

Results flagged for a closer look

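In 29 groups of 4 or 5 libraries examined, 3 held a library that stood apart from the rest of its group by Dixon's ratio of the gap to the range. Chance flags about 1 in 20 groups. The *nrv2* level of *Orco* mutant 5, 450 CPM, stood apart from 51.1 to 77.5 CPM in the other *Orco* mutant libraries. The *Orco* level of *Orco* mutant 2, 1.31 CPM, stood apart from 0 to 0.378 CPM in the others. The share of *nrv2* in the beta subunit RNA of wild-type 3, 25.7%, was lower than the 38.1 to 40.5% of the other wild-type libraries.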

How the results depend on the processing

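None of the 7 transporter genes was called under any of the 19 alternatives to the reported fit, and 123 of 133 log2 fold changes kept their sign. The sign turned for *Rh50* with limma-voom and quality weights (0.026), and for *Atpalpha* with a block for the replicate number (-0.024) and without *Orco* mutant 3 and 5 (-0.21). With 1 library left out, the log2 fold change ranged from -0.014 to 0.33 for *Atpalpha*, -0.38 to 0.30 for *nrv1*, -1.64 to -0.21 for *nrv2*, -0.78 to 0.23 for *nrv3*, -0.76 to -0.34 for *kcc*, -0.45 to -0.075 for *Ncc69* and -0.39 to -0.023 for *Rh50*. With all 9 libraries, limma-voom gave -1.15 for *nrv2*, -0.56 for *nrv3* and -0.40 for *kcc*, and with quality weights -1.23, -0.70 and -0.22. Why these differed from the reported fit was not tested. The replicate block gave -1.51, -0.74 and -0.55 for the same genes, and *Orco* mutant 5 adds nothing to the genotype difference in that fit. Without *Orco* mutant 5 and with no block, the values were -1.64, -0.78 and -0.43. The count of all genes called, 3, was 106 with DESeq2, 12 with limma-voom, 91 with quality weights, 5 with no filter, 1 without *Orco* mutant 3 and 5, and 1 to 3 with 1 library left out. The mean share of *nrv3*, 36.3% in wild-type and 37.3% in *Orco* mutant organs, was 44.3% and 46.0% with counts not divided by length. It was 47.9% and 49.97% with each transcript divided by its own length, and 30.3% and 30.7% with the longest transcript length. Deviations of libraries that share a replicate number correlated at -0.094 to 0.027, against -0.062 to 0.084 for libraries of unlike number. With so few libraries this cannot tell whether samples of the same number were prepared together. The replicate block called none of the 7 genes. In the block fit *Orco* mutant 5 is alone under its number, so its own block term takes up its values. In the simulation over all 8160 genes, 0% of 2-fold changes were recovered. Recovery at the smaller median spread of the 7 transporter genes was not simulated.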
